A study of Rattus norvegicus with 12 samples.

Results

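Hyaluronan is a long unbranched sugar chain that gives synovial fluid its viscosity and fills the matrix around synovial fibroblasts. The chain is built at the plasma membrane from UDP-glucuronic acid and UDP-N-acetylglucosamine by 3 synthases, it is cut outside and inside the cell by hyaluronidases, and it is held in place by receptors on the cell and by binding proteins in the matrix. Fibroblast-like synoviocytes (FLS), the lining fibroblasts of the joint, are its main makers in the synovium, and the balance of long and short chains is known to shift in arthritis. The genes described here cover these steps, from Ugdh, the enzyme that oxidises UDP-glucose to UDP-glucuronic acid, through the synthases Has1, Has2 and Has3 and the hyaluronidases Hyal1 and Hyal2, to the receptor Cd44 and the secreted binding protein Tnfaip6 (TSG-6). They were chosen by name, 8 genes in all. A gene name with several records in the table was taken at the record with the highest mean, 7 of the 8 genes had a record among 22442, and Hyal1 was not analysed here.

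The cells were cultured FLS from the synovium of male Sprague Dawley rats in which adjuvant arthritis had been induced with complete Freund's adjuvant, and they were used at passage 3. The FCA group was left untreated in medium alone, and the AT01, AT1 and AT10 groups received taurochenodeoxycholic acid (TCDCA), a taurine-conjugated bile acid, at 0.1, 1 and 10 µM for 12 h. Each of the 4 groups had 3 libraries of poly(A) RNA, 12 in all, and every group came from arthritic animals, so no library stands for a healthy joint. The age of the rats is not given in the sources used here. The study calls replicates 1, 2 and 3 repeated sets without saying whether they were separate animals, cultures or days, so p-values measure only the spread between these samples, which may be technical. In bulk RNA of this kind, fewer cells of a type and less RNA per cell cannot be told apart.

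The values are FPKM, fragments per kilobase of transcript scaled to the mapped fragments of the library, which allow genes to be set side by side per length. They summed to between 284210 and 309696 a library, with 17736 to 18505 records above 0. The study states read totals for each library, which were not used here, and without counts per gene no counting error is given for a single value. Of the 10 markers fixed for synovial fibroblasts, 8 had a record and the mean of all 8 reached 1 FPKM (Vim 1942 to 3084, Col1a1 571 to 1072, Thy1 112 to 158 and the lubricin gene Prg4 26.8 to 37.5 FPKM). Of 10 leukocyte markers, 6 had a record, the macrophage genes Adgre1 and Aif1 did not exceed 0.03 FPKM, Cd68 lay between 1.66 and 2.91 FPKM, and Cd14 lay between 3.60 and 18.82 FPKM. Of 7 endothelial markers, 6 had a record and 5 of these stayed below 1 FPKM in every library, with Cdh5 at 0.01 FPKM at most, while Egfl7 lay at 16.65 to 22.09 FPKM.

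At their mean over 12 libraries, Cd44 (86.5 FPKM) and Ugdh (66.3 FPKM) stood above 94.9% and 93.2% of the 11611 records whose mean reached 1 FPKM. Hyal2 (20.0 FPKM), Tnfaip6 (19.0 FPKM) and Has2 (18.2 FPKM) lay close together, above 78.6%, 77.7% and 76.8% of those records. Has1 (1.78 FPKM) stood above only 12.7%, and Has3 (0.083 FPKM) fell under the minimum of 1 FPKM and was left out of the tests across genes. The spread over the libraries differed widely between the genes. The coefficient of variation over the 12 libraries was 8.31% for Cd44, 11.5% for Ugdh, 13.7% for Tnfaip6, 21.9% for Hyal2, 26.6% for Has1 and 63.1% for Has2.

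**Figure D1:**
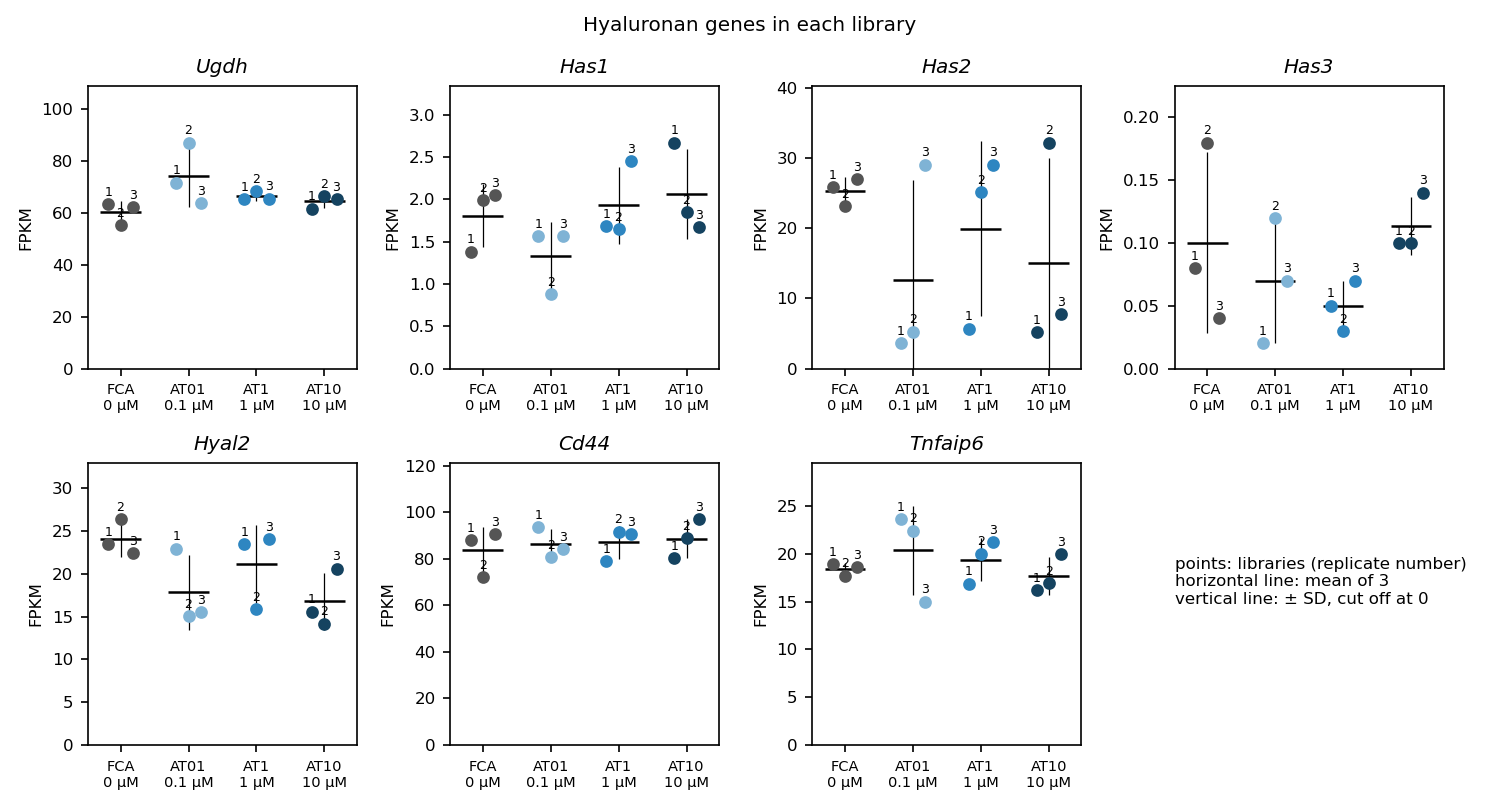
FPKM of the 7 genes with a record, each in its own panel with its own axis from 0; points are single libraries with their replicate number, horizontal lines are means of 3 and vertical lines are ± SD. The 3 FCA libraries of Has2 sit together at 23.12 to 27.05 FPKM while each TCDCA dose holds libraries both at 7.75 FPKM or less and at 25.18 FPKM or more, and the ranges of Cd44 and of Tnfaip6 overlap between all groups.

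Genes next to each other in these levels were compared within libraries, by exact two-sided permutation of the signs of the 12 log2(FPKM + 1) differences for each of the 6 adjacent pairs. The pairs were taken from the means over the same 12 libraries, so the p-values do not test an order set beforehand. Cd44 was above Ugdh by 0.38 ± 0.17 (SD, n = 12) in 11 of 12 libraries (adjusted exact p = 0.00146). Ugdh was above Hyal2 by 1.71 ± 0.40 in 12 of 12 libraries, Has2 was above Has1 by 2.47 ± 1.10 in 12 of 12, and Has1 was above Has3 by 1.34 ± 0.26 in 12 of 12 (adjusted exact p = 0.000977 for each, from 0.000488, the smallest value 12 paired libraries can give). The 3 genes in the middle could not be ordered. Hyal2 and Tnfaip6 differed by 0.05 ± 0.32 (adjusted exact p = 0.587), and Tnfaip6 and Has2 by 0.38 ± 1.21 (adjusted exact p = 0.347), with Tnfaip6 the higher in 5 of 12 libraries.

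Ugdh supplies UDP-glucuronic acid to hyaluronan and to the sulphated glycosaminoglycans alike. It stood at 63.30, 55.31 and 62.11 FPKM in FCA, at 71.66, 87.15 and 63.84 FPKM in AT01, at 65.35, 68.29 and 65.53 FPKM in AT1, and at 61.63, 66.44 and 65.42 FPKM in AT10. The AT01 and AT1 libraries all lay above the 3 FCA libraries, as they did for 5.97% and 9.87% of all records. Of the 9 TCDCA libraries 8 lay above every FCA library, but the distance was small. The share of all records with such a count was not computed. The log2 fold change on the log2(FPKM + 1) scale, on which every fold change here is given and which understates changes at low values, was 0.29 (SE 0.13, 95% interval -0.04 to 0.61) in AT01 and 0.14 (SE 0.07, -0.03 to 0.31) in AT1, with limma adjusted p of 0.722 and 0.476 over all records tested. An exact two-sided permutation test gave p = 0.1 for each, the smallest that 3 against 3 libraries allow. In AT10 the log2 fold change was 0.10 (limma adjusted p = 0.611). For the 9 TCDCA libraries together it was 0.18 (SE 0.09, -0.02 to 0.37, limma unadjusted p = 0.0782, limma adjusted p = 0.465). The exact permutation p over 9 against 3 libraries was 0.0273, not adjusted over genes or comparisons. Leaving out 1 library gave 0.17 (without AT01 replicate 2) to 0.39 (without AT01 replicate 3) in AT01, 0.08 (without FCA replicate 2) to 0.18 (without FCA replicate 1) in AT1 and 0.04 (without FCA replicate 2) to 0.14 (without FCA replicate 1) in AT10.

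Most of the summed synthase FPKM came from Has2, the synthase held to make the longest chains and the one mesenchymal cells depend on. Its record stood at 25.83, 23.12 and 27.05 FPKM in the 3 FCA libraries. In AT01 it stood at 3.60, 5.26 and 29.10 FPKM, in AT1 at 5.67, 25.18 and 29.06 FPKM, and in AT10 at 5.20, 32.24 and 7.75 FPKM. The 12 values lay on 2 levels. A lower level of 3.60 to 7.75 FPKM held 5 libraries (AT01 replicates 1 and 2, AT1 replicate 1, AT10 replicates 1 and 3), and an upper level of 23.12 to 32.24 FPKM held the other 7, with no library between. The gap of 1.46 on the log2(FPKM + 1) scale was wider than the range of the lower level (0.93) or of the upper level (0.46), and the highest library was 8.96 times the lowest.

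Every dose of TCDCA had libraries on both levels, whereas the 3 FCA libraries were all on the upper one, so that 5 of 9 TCDCA libraries and 0 of 3 FCA libraries were low. The number of low libraries did not follow the dose: 2 at 0.1 µM, 1 at 1 µM and 2 at 10 µM. By replicate number, all 3 TCDCA libraries numbered 1 were low, as was 1 of 3 numbered 2 and 1 of 3 numbered 3, while FCA replicate 1 was on the upper level. A record was counted as having 2 levels if its widest gap was at least 1 on the log2 scale, exceeded the range on either side and had 2 or more libraries above it and below it. By this measure 525 of 11611 records tested (4.52%) had 2 levels, and Has2 was the only 1 of the 6 genes tested here. A minor record under the name Has2, made of a single transcript assembled by StringTie without an Ensembl match, lay between 0.40 and 1.52 FPKM and did not follow the 2 levels (AT10 replicate 3 held 1.14 FPKM and AT1 replicate 3 held 0.40 FPKM).

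With libraries on both levels inside each dose group, the SD was far larger in every dose group than in FCA. Has2 averaged 25.3 ± 2.0 FPKM (SD, n = 3) in FCA, 12.7 ± 14.3 in AT01, 20.0 ± 12.5 in AT1 and 15.1 ± 14.9 in AT10. The log2 fold change against FCA was -1.46 (SE 0.70, 95% interval -3.20 to 0.28) in AT01, -0.60 (SE 0.59, -2.06 to 0.87) in AT1 and -1.11 (SE 0.62, -2.66 to 0.44) in AT10. None of the 3 passed the test across all records (limma adjusted p = 0.737, 0.687 and 0.524), and the exact two-sided permutation p were 0.4, 0.8 and 0.4. All 9 TCDCA libraries against FCA gave -1.06 (SE 0.66, -2.49 to 0.38, limma adjusted p = 0.537, exact permutation p = 0.3). The intervals include no difference as well as log2 differences below -2. Single libraries decided the values. Without AT01 replicate 3, the only AT01 library on the upper level, the log2 fold change of AT01 was -2.29 (limma adjusted p = 0.0441, against 0.0441 to 0.964 over all alternatives), and without AT10 replicate 2 that of AT10 was -1.84 (limma adjusted p = 0.0839). In the other direction, AT01 was -0.94 without AT01 replicate 1 and AT10 was -0.62 without AT10 replicate 1 (limma adjusted p = 0.635 and 0.659). Without AT1 replicate 1 that of AT1 turned to 0.09, and without AT1 replicate 3 it was -0.99.

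Between doses, Has2 differed by -0.51 from AT1 to AT10, by 0.35 from AT01 to AT10 and by 0.87 from AT01 to AT1 on the log2 scale, with limma adjusted p of 0.896, 0.956 and 1. The difference between AT10 and AT01 changed sign when AT10 replicate 2 was left out (-0.37) or AT01 replicate 1 (-0.17). These comparisons share libraries with those against FCA.

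Has1, a synthase of lower activity that inflammatory signals are known to switch on in synoviocytes, stood at 1.38, 1.99 and 2.05 FPKM in FCA. It stood at 1.56, 0.88 and 1.56 FPKM in AT01, at 1.68, 1.65 and 2.45 FPKM in AT1 and at 2.67, 1.85 and 1.67 FPKM in AT10. All 3 AT01 libraries lay below all AT1 and all AT10 libraries, as they did for 4.86% and 4.64% of all records, while each dose overlapped FCA. The log2 fold change of AT10 against AT01 was 0.39 (SE 0.19, 95% interval -0.07 to 0.86, limma adjusted p = 0.867) and that of AT1 against AT01 was 0.33 (SE 0.18, -0.11 to 0.78, limma adjusted p = 1), with an exact permutation p of 0.1 for each. Against FCA the values were -0.27, 0.06 and 0.12 in AT01, AT1 and AT10, with limma adjusted p of 0.797, 0.894 and 0.771. Has1 stayed under 3 FPKM in every library.

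Has3 lay between 0.02 and 0.18 FPKM in the 12 libraries, at a mean of 0.10 ± 0.07 FPKM (SD, n = 3) in FCA, 0.07 ± 0.05 in AT01, 0.05 ± 0.02 in AT1 and 0.11 ± 0.02 in AT10. A synthase listed at these levels next to 1.78 FPKM of Has1 was near the floor of 2 decimals to which the values were deposited, and it was left out of the fit across genes. Exact two-sided permutation gave p = 0.8, 0.4 and 0.6 for AT10, AT1 and AT01 against FCA. The AT10 libraries (0.10, 0.10 and 0.14 FPKM) lay above the AT1 libraries (0.05, 0.03 and 0.07 FPKM) without overlap, at p = 0.1, the smallest that the exact test allows. Of the records tested, which leave out Has3, 5.7% were higher in AT10 than in AT1 without overlap.

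Adding the 3 synthases gave 25.3 to 34.2 FPKM in the 7 libraries in which Has2 was on its upper level and 5.18 to 9.56 FPKM in the other 5, a sum that Has2 makes up for the most part. Has2 was 91.4% to 94.7% of the sum in those 7 libraries. It was 69.5% and 84.0% in AT01 replicates 1 and 2, 76.6% in AT1 replicate 1, and 65.2% and 81.1% in AT10 replicates 1 and 3. In these 5 libraries Has1 made up 30.1%, 14.1%, 22.7%, 33.5% and 17.5% of the sum, and Has3 no more than 1.92% in any library. Has2 was thus the synthase with the highest FPKM in all 12 libraries, also where it was low.

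**Figure D2:**
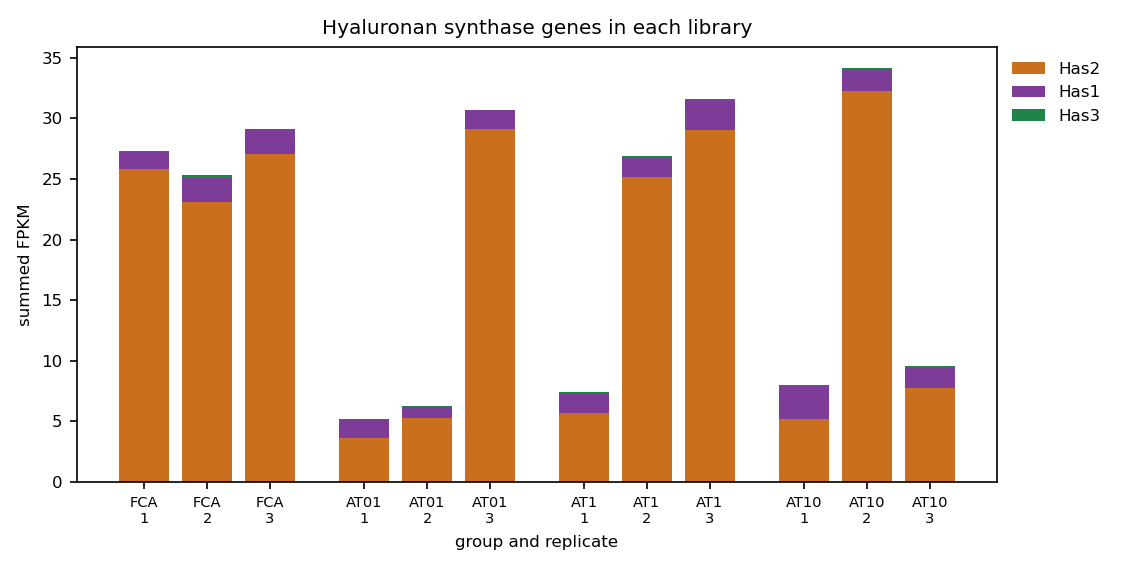
Stacked bars of FPKM of Has2, Has1 and Has3 in each of the 12 libraries, from 0, ordered by group and replicate. Sums reach 25.29 to 34.19 FPKM in 7 libraries, all 3 FCA libraries among them, and 5.18 to 9.56 FPKM in 5 TCDCA libraries, and Has2 is the tallest part of every bar.

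Records with a like pattern were ranked by their correlation. The 5 named records with the highest Pearson correlation to Has2 on the log2(FPKM + 1) scale over the 12 libraries were Zfp618 (r = 0.878), Mfsd8 (r = 0.841), AABR07068285.2 (r = 0.833), Osbp2 (r = 0.796) and Rmdn1 (r = 0.789). The rank correlations were 0.650, 0.692, 0.823, 0.622 and 0.678. None of the 5 had 2 levels of its own, and the largest of them, AABR07068285.2, moved only between 10.27 and 13.89 FPKM. Among all records tested, 20 were lower in all 5 low libraries than in the other 7, Has2 included, and 12 were higher. Of these 20, 2 had 2 levels, Has2 among them, where 525 of all 11611 records tested had 2 levels. How many records an arbitrary split into 5 and 7 libraries would part was not computed, so these counts do not show a pattern shared between genes. The points share their libraries, they were picked as the highest of all records tested, and with Has2 on 2 levels r mainly measures how far a record parts the 5 low libraries from the other 7.

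On the side of breakdown, Hyal2, the membrane-anchored hyaluronidase that cuts long chains at the cell surface into fragments for uptake, separated AT10 from FCA. It stood at 23.48, 26.41 and 22.38 FPKM in FCA and at 15.58, 14.19 and 20.59 FPKM in AT10, with AT10 the lower and no overlap. Of all records, 9.18% were lower in AT10 without overlap. In AT01 it stood at 22.93, 15.07 and 15.50 FPKM, and in AT1 at 23.47, 15.89 and 24.05 FPKM. No TCDCA library exceeded the highest FCA library, and 6 of 9 lay below every FCA library: 3 of 3 in AT10, 2 of 3 in AT01 and 1 of 3 in AT1. The share of all records with such a count over the 9 libraries was not computed.

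The group means of Hyal2 were 24.1 ± 2.1 FPKM (SD, n = 3) in FCA, 17.8 ± 4.4 in AT01, 21.1 ± 4.6 in AT1 and 16.8 ± 3.4 in AT10. For AT10 against FCA the log2 fold change was -0.51 (SE 0.15, 95% interval -0.88 to -0.14). Limma gave an unadjusted p of 0.0152 and an adjusted p of 0.297, and the exact permutation p was 0.1, the smallest possible. For AT01 it was -0.43 (SE 0.17, -0.87 to -0.003, limma adjusted p = 0.72, exact permutation p = 0.2) and for AT1 -0.20 (SE 0.17, -0.63 to 0.23, limma adjusted p = 0.647, exact permutation p = 0.5). The 9 TCDCA libraries together gave -0.38 (SE 0.17, -0.75 to -0.01, limma adjusted p = 0.402, exact permutation p = 0.0727). The difference did not pass the correction over all records in any comparison. Leaving out 1 library gave -0.66 to -0.40 in AT10, -0.62 to -0.33 in AT01 and -0.30 to -0.02 in AT1, the last without AT1 replicate 2. Hyal1, the lysosomal partner of Hyal2, is its immediate neighbour in the RefSeq annotation of the rat assembly GRCr8, with 0 genes starting between them. The summed FPKM of 5 smooth muscle and pericyte markers, of 7 fixed, was lower in every TCDCA library than in any FCA library: 314.0 to 414.8 in FCA, 229.9 to 292.1 in AT01, 258.0 to 296.2 in AT1 and 164.0 to 309.7 in AT10. Most of this sum was Acta2, with means of 316.9 FPKM in FCA, 223.5 in AT01, 228.6 in AT1 and 209.4 in AT10. The other 4 (Myh11, Des, Cnn1 and Mcam) had log2 fold changes of -0.02 to 0.05 in the 9 TCDCA libraries together. Of all records, 1.9% were lower in these 9 libraries than in FCA without overlap, and 0.956% were higher. Among the 8 fibroblast markers tested, Thy1 was lower without overlap (mean 132.7 against 154.4 FPKM in FCA) and Fap was higher (14.82 against 11.85 FPKM). The part of Acta2-expressing cells in the Hyal2 values was not tested.

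Cd44, the principal hyaluronan receptor of FLS, stood at 88.12, 72.27 and 90.67 FPKM in FCA, at 93.51, 80.78 and 84.32 FPKM in AT01, at 79.01, 91.71 and 90.72 FPKM in AT1 and at 80.32, 88.83 and 97.16 FPKM in AT10. The groups overlapped throughout. Its log2 fold changes were 0.05, 0.06 and 0.09 for AT01, AT1 and AT10, with limma adjusted p of 0.938, 0.832 and 0.766, and the 9 TCDCA libraries together gave 0.07 with a 95% interval of -0.12 to 0.25.

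Tnfaip6, an inducible protein that transfers the heavy chains of inter-alpha-inhibitor onto hyaluronan, stood at 18.92, 17.73 and 18.63 FPKM in FCA, at 23.64, 22.41 and 15.01 FPKM in AT01, at 16.87, 20.01 and 21.25 FPKM in AT1 and at 16.19, 16.92 and 19.93 FPKM in AT10. The FCA libraries lay close together, inside the range of every dose. The log2 fold changes were 0.11, 0.06 and -0.06 for AT01, AT1 and AT10, with limma adjusted p of 0.887, 0.797 and 0.785, and 0.04 for the 9 TCDCA libraries (95% interval -0.23 to 0.31).

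**Figure D3:**
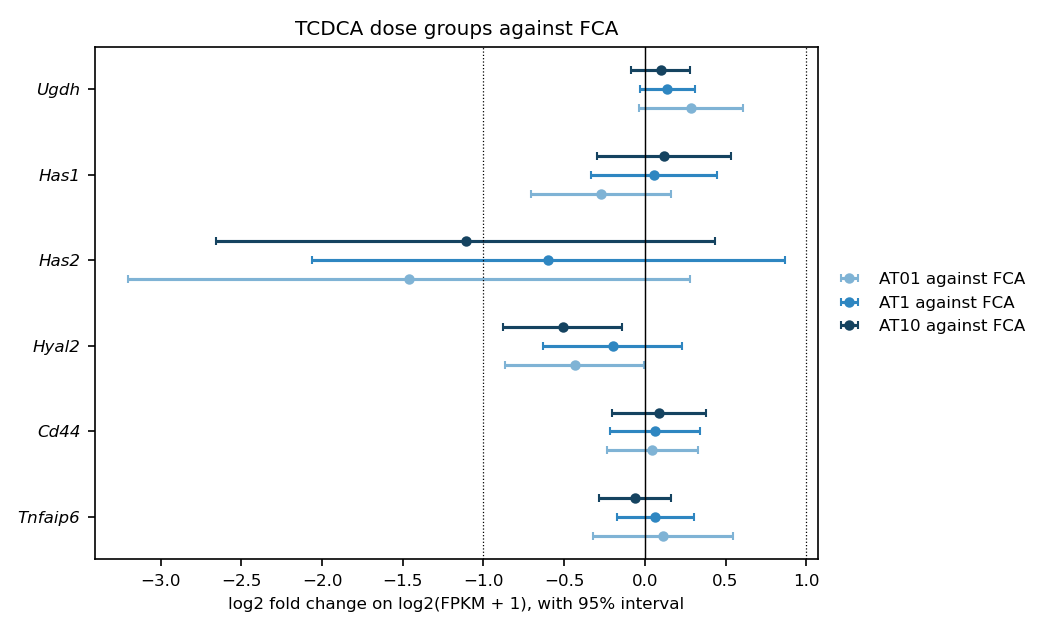
Log2 fold change of each dose against FCA on the log2(FPKM + 1) scale for the 6 genes tested, with 95% limma intervals; dotted lines mark a log2 fold change of -1 and 1. The Has2 intervals run from -3.20 at the lowest to 0.87 at the highest, those of Cd44 and Tnfaip6 all include 0, and the Hyal2 points all lie below 0.

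Counted over all comparisons, 0 of the 6 genes passed an adjusted p under 0.05 with limma in any dose against FCA, between any pair of doses or in the 9 TCDCA libraries against FCA. Among all records the share that passed was 0.172% for AT10, 0.0947% for AT1, 0.0947% for AT01 and 0.0258% for the 9 libraries against FCA, and between doses it was 0.258% (AT10 and AT1), 0.0689% (AT10 and AT01) and 0.129% (AT1 and AT01). The study asked for p under 0.05 from Ballgown, not adjusted, and for a log2 fold change beyond 1 in either direction. With limma p put in place of Ballgown p, the count by this rule was again 0 of 6 in each comparison. Among all records 0.706%, 0.62%, 0.758% and 0.491% met it with limma p for AT10, AT1, AT01 and the 9 libraries against FCA. Between the doses, in the order given above, 0.594%, 0.672% and 0.568% did. The count depended on the test. When p came from the unmoderated F test modelled on Ballgown, 1 of 6 met the rule in AT01, Has2 (log2 fold change -1.46, unadjusted p = 0.0344). With that test 52 of all 11611 records tested met it in AT01. At an unadjusted limma p under 0.05 alone, Hyal2 passed in AT10, AT01 and the 9 libraries against FCA, 1 of 6 each time, where 11.9%, 6.6% and 12% of all records passed. Leaving out 1 library kept Hyal2 under 0.05 in 4 of 6, 1 of 6 and 4 of 12 cases, and the other alternatives kept it there in 8 of 8, 4 of 8 and 7 of 8. The count was 0 of 6 for AT1 (all records 11%) and between doses (6.46%, 4.97% and 3.43%).

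Genes whose groups did not overlap were also counted. In AT10 against FCA, Hyal2 was the 1 of 6 without overlap (19.9% of all records, 9.18% lower and 10.7% higher). In AT1 and AT01, Ugdh was the 1 of 6 (19.9% and 14% of all records, of which 9.87% and 5.97% were higher and 10.0% and 8.06% lower). Has1 was the 1 of 6 when AT10 or AT1 was set against AT01, higher than AT01 in both (11.1% and 8.6% of all records, of which 4.64% and 4.86% were higher and 6.47% and 3.75% lower). The count was 0 of 6 in AT10 against AT1 (13.9% of all records, 5.7% higher and 8.16% lower) and in the 9 TCDCA libraries against FCA (2.86%, 0.956% higher and 1.9% lower). Against FCA, the median log2 fold change of the 6 genes came to -0.11 for AT01, 0.06 for AT1 and 0.01 for AT10, beside 0.002, 0.02 and -0.01 over all records tested.

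The wider pathway was described from 5 lists: precursor supply, synthesis, breakdown, cell surface receptors with their partners, and matrix binding. Of their genes 40 reached a mean of 1 FPKM, the 6 above included, and 0 of the 40 passed an adjusted p under 0.05 with limma in any of the 7 comparisons. At an unadjusted limma p under 0.05, 5 of 40 passed in AT10 (Hmmr, Rdx and Ugp2 higher, Hyal2 and Pgm1 lower; 11.9% of all records), 2 in AT1 (11%), 3 in AT01 (6.6%) and 4 in the 9 libraries against FCA (12%). These counts lie near the share over all records or below it. Directions by any amount were also counted. In AT01, AT1 and AT10, 8, 10 and 6 of 14 genes of precursor supply were higher than in FCA, 3, 5 and 2 of 7 of breakdown, 9, 8 and 6 of 9 receptors and partners, and 2, 3 and 3 of 8 matrix binders. The median log2 fold changes of these 4 lists lay between -0.07 and 0.13, beside -0.01 to 0.02 over all records. For synthesis, with only Has1 and Has2 tested, the median was -0.87, -0.27 and -0.49.

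Within precursor supply, Ugdh aside, the genes of the highest level were Gpi, which interconverts glucose and fructose phosphates, at 139 to 181 FPKM, Uap1, which makes UDP-N-acetylglucosamine, at 104 to 138 FPKM, and Uxs1, which draws UDP-glucuronic acid off to UDP-xylose, at 43.4 to 68.8 FPKM. All 3 stood above Has2 in every library. Among breakdown genes, Cemip, which binds and degrades hyaluronan in fibroblasts without a classical hyaluronidase, ranged from 33.8 to 88.8 FPKM and was above Hyal2 in every library. Its lowest values were 33.77 FPKM in AT01 replicate 2 and 41.17 FPKM in FCA replicate 3. Hexa, which codes for a lysosomal enzyme, lay at 24.6 to 30.3 FPKM.

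Among the partners of Cd44, Mmp14 and Msn stood above the receptor itself in every library. Mmp14, a membrane protease known to shed Cd44, lay at 155 to 214 FPKM. Msn (moesin), which ties Cd44 to actin, lay at 125 to 165 FPKM in 10 libraries but at 308.14 FPKM in AT10 replicate 1 and 261.56 FPKM in AT01 replicate 1. Nf2 (merlin), its counterpart at the same tail, ranged from 14.03 to 30.99 FPKM. The endothelial and lymphatic hyaluronan receptors were nearly silent, with Lyve1 at 0.01, Stab1 at 0.04 and Stab2 at 0.01 FPKM at most. Among matrix binders, Ptx3, which joins Tnfaip6 in crosslinking hyaluronan, ranged widely from 19.0 to 102.7 FPKM, the proteoglycan Vcan from 29.7 to 56.1 FPKM and Prg4 from 26.8 to 37.5 FPKM. The genes of the inter-alpha-inhibitor heavy chains that Tnfaip6 transfers were at or near 0, with Itih1 at 0.01, Itih2 at 0.05, Itih3 at 0.02 and Itih4 at 0.06 FPKM at most.

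**Figure D4:**
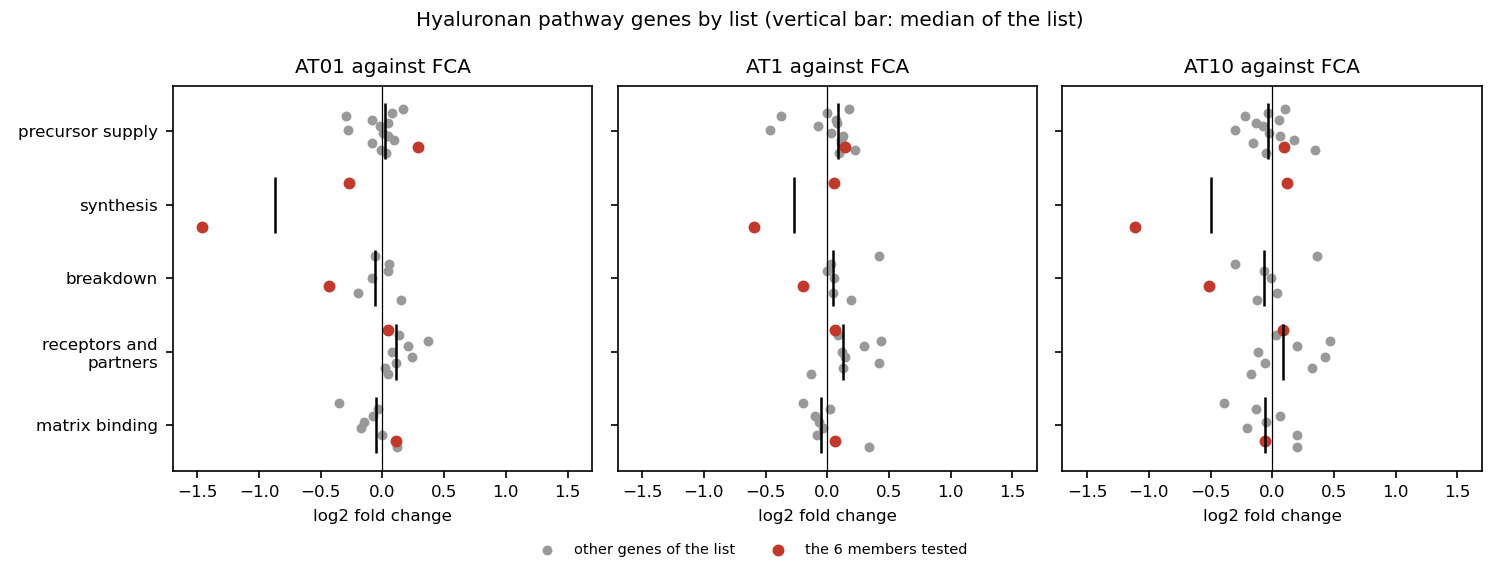
Log2 fold change on the log2(FPKM + 1) scale of each of the 40 pathway genes tested (points; red for the 6 genes described above, grey for the others) by list, for the 3 doses against FCA, with a vertical bar at the median of each list. Has2 lies far to the left in each panel (-1.46, -0.60 and -1.11) while the other points stay within about 0.5 of 0.

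Whether the genes varied together was asked over the 12 libraries in 21 pairs, by permutation (100000 resamples) with adjustment over the pairs. Of these, 0 pairs passed an adjusted p under 0.05 by Pearson's r or Spearman's rho, and 2 passed unadjusted by each, Ugdh with Has1 and Ugdh with Tnfaip6 by r, and Ugdh with Tnfaip6 and Cd44 with Tnfaip6 by rho. Ugdh and Has1 had a negative correlation (r = -0.71, permutation p = 0.0177, adjusted p = 0.341; rho = -0.52, permutation p = 0.0837, adjusted p = 0.495). Without the 2 libraries farthest from the median of Ugdh, r was -0.40, and after centring each group on its mean it was -0.69. Ugdh and Tnfaip6 had a positive one (r = 0.60, permutation p = 0.0325, adjusted p = 0.341; rho = 0.68, permutation p = 0.0188, adjusted p = 0.394), with r = 0.66 without the 2 farthest libraries and 0.62 after centring. Cd44 and Tnfaip6 gave rho = 0.59 (permutation p = 0.0456, adjusted p = 0.479) and r = 0.44 (permutation p = 0.152, adjusted p = 0.54), with r = 0.40 without the 2 farthest libraries. Since Has2 lay on 2 levels, no r is given for it over all 12 libraries with the other genes of the group.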

How the data were processed

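RNA-seq of 12 libraries of rat FLS was analysed from a single gene table. The authors trimmed reads with cutadapt, aligned them with HISAT2 2.0.4, assembled transcripts with StringTie 1.2.4, used Ballgown 2.6.0 for expression, and deposited FPKM per gene record to 2 decimals. The genome build is not given in the sources used here. The submitters' processing notes also name edgeR. The study gives read totals for each library, which were not used here, and with FPKM alone no counting error was computed.

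FPKM were transformed to log2(FPKM + 1), and records whose mean over 12 libraries reached 1 FPKM (11611 of 22442) were fitted with limma (version 3.58.1, eBayes with trend, R 4.3.3), 2 groups at a time, with Benjamini-Hochberg adjustment over all records tested. For 9 TCDCA libraries against FCA all 12 were fitted. Single genes were also compared by exact two-sided permutation (SciPy 1.17.1, Python 3.11.15). The fitting steps were tested on simulated data. Levels were compared over 6 adjacent pairs, since Hyal1 was not analysed here. The members, lists and the definition of 2 levels were chosen with earlier results of these data known. The text names the members, the 3 other genes of highest mean in each list, any list gene passing the adjusted threshold, and the 5 records most correlated with Has2, except 1 list gene that is not reported here; genes named beyond this rule (markers, Lyve1, Stab1, Stab2, the Itih genes and those in counts of 5 or fewer) were chosen after their values were seen. Alternatives were another pseudocount (0.1), no filter or a minimum of 10 FPKM, 1 fit over 12 libraries, an unmoderated F test like that of Ballgown, scaling by median of ratios, summed records, a replicate block and leaving out each library.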

Additional observations from a re-analysis of the deposited data

Results flagged for a closer look

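Ugdh in AT01 replicate 2 stood apart from the other TCDCA libraries. At 87.15 FPKM it was the highest of the 9. On the log2(FPKM + 1) scale its gap to the next library was 0.565 of their whole range, above the 95% critical value of Dixon's test for 9 samples. The FCA libraries held 55.31 to 63.30 FPKM. Of 7 genes examined this way it was the only one, and chance marks about 1 in 20 groups.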

How the results depend on the processing

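For 35 log2 fold changes of single genes, no alternative other than leaving out 1 library changed a sign or the side of an adjusted p of 0.05, and 17 of the 258 that left out 1 library changed a sign, in 12 of the 35. Leaving out each library gave ranges of -0.99 to 0.09 for Has2 in AT1 against FCA and -0.37 to 1.18 in AT10 against AT01. For Cd44 they were -0.014 to 0.156 in AT10, -0.039 to 0.13 in AT1, -0.054 to 0.107 in AT01 and -0.036 to 0.126 in the 9 TCDCA libraries against FCA. For Has1 they were -0.016 to 0.213 in AT10, -0.066 to 0.124 in AT1 and -0.145 to 0.036 in the 9 libraries, and for Tnfaip6 -0.003 to 0.155 in AT1, -0.004 to 0.307 in AT01 and -0.000389 to 0.077 in the 9 libraries. Without AT01 replicate 3, Has2 in AT01 was -2.29 and became the 1 gene called in AT01, by adjusted p and by the criterion of the study, and the 1 of the pathway lists; the range over the AT01 and FCA libraries left out was -2.29 to -0.94, and 0 to 1 genes called. Without AT10 replicate 2 the criterion of the study called 1 gene in AT10, Has2 (0 to 1). Under the F test in the manner of Ballgown it called 1 in AT01, Has2 (unadjusted p = 0.0344), beside 52 of all 11611 records tested. The cause was not tested. Over all records the calls by adjusted p moved with the alternatives from 20 to between 1 and 35 in AT10, from 11 to between 0 and 33 in AT1, from 11 to between 2 and 30 in AT01 and from 3 to between 1 and 22 in the 9 libraries against FCA. Between doses they moved from 30 to between 1 and 50 (AT10 against AT1), from 8 to between 0 and 24 (AT10 against AT01) and from 15 to between 2 and 25 (AT1 against AT01). A minimum of 10 FPKM left no value for Has1, and a pseudocount of 0.1 put Has1 above Has3 by 3.36 in place of 1.34.

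The replicate numbers of the labels did not pair the libraries: same-numbered libraries correlated at -0.105 to 0.094 in their deviations from the group means. With a replicate block Has2 kept its log2 fold changes of -1.46, -0.60 and -1.11 in AT01, AT1 and AT10 (limma adjusted p = 0.805, 0.653 and 0.537), 0 of 6 genes were called in each comparison, and over all records the calls went to 1 in AT10, 0 in AT1, 2 in AT01 and 1 in the 9 libraries, and to 1, 0 and 2 between doses. No limit was computed from depth, since FPKM hold no counts, and 3 against 3 libraries cannot give an exact permutation p below 0.1.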

Other observations

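Of the 40 pathway genes tested, 2 had no overlap between the 3 FCA libraries and all 9 TCDCA libraries, where 2.86% of all records had none. Both were chosen after their values were seen, and neither passed the correction over all records. Lack of overlap by itself puts the exact permutation p of 9 against 3 libraries at its smallest value, so that p adds no support for either gene.

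Hmmr, an intracellular and surface hyaluronan-binding protein that also acts at the mitotic spindle, stood at 6.62 to 7.31 FPKM in FCA (mean 6.96 ± 0.35, SD, n = 3) and at 7.81 to 11.31 FPKM in the TCDCA libraries (mean 9.72 ± 1.07, n = 9). Its log2 fold change was 0.42 (SE 0.09, limma adjusted p = 0.205), and the exact permutation p was 0.00909, the smallest that 9 against 3 libraries can give. The doses gave 0.37 in AT01, 0.43 in AT1 and 0.47 in AT10, with limma adjusted p of 0.72, 0.298 and 0.179. The 3 values share their FCA libraries, and their SE of 0.13, 0.07 and 0.10 exceed the steps between them.

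Acan, the core protein of the cartilage proteoglycan that packs onto hyaluronan, was on the opposite side: 4.89 to 5.79 FPKM in FCA (mean 5.20 ± 0.51, n = 3) and 2.74 to 4.58 FPKM in the TCDCA libraries (mean 4.01 ± 0.59, n = 9). The log2 fold change was -0.31 (SE 0.11, limma adjusted p = 0.347, exact permutation p = 0.00909), with -0.35, -0.20 and -0.39 in AT01, AT1 and AT10. Acan is also among the 6 chondrocyte markers, whose summed FPKM ranged from 8.01 to 10.13 in FCA, 5.73 to 8.29 in AT01, 6.47 to 8.24 in AT1 and 4.73 to 8.54 in AT10. The sum holds Acan itself as its largest part, so it is not separate from the Acan values. Comp and Sox9, the other chondrocyte markers tested, had log2 fold changes of -0.09 and -0.29 in the 9 TCDCA libraries (limma adjusted p = 0.73 and 0.746). Both overlapped FCA. Among these markers the cartilage collagen gene Col2a1 did not exceed 0.01 FPKM in any library.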
